A study of Mus musculus with 4 samples.

Results

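The genes described here encode the signalling machinery of the T cell receptor: the CD3 chains, the kinases, phosphatases and adaptors that act on them, the coreceptor-like costimulators, and the enzymes and transcription factors further down. The list holds 43 genes, chosen by name. All probe sets with one of these names as their single platform symbol were taken, which gave 100 probe sets for 42 genes of the 45037 probe sets on the array. Lck was not analysed here. RNA of double positive thymocytes, which carry both CD4 and CD8, was measured on Affymetrix mouse arrays, 1 array per mouse. The 2 Cre-positive mice were Ikf/f CD4-Cre+, and the 2 Cre-negative mice were Ikf/f CD4-Cre-. All 4 were thus Ikf/f, the allele of the Ikaros gene Ikzf1 that Cre deletes, and differed by the Cre transgene, whose CD4 promoter drives Cre in T lineage cells. No Cre-positive mice with another Ikzf1 genotype were included, so an effect of Cre and an effect of Ikaros loss cannot be told apart. The labels name no age, sex, strain or sorting method. The p-values rest on the spread between mice within each group, which the test shares in part across genes.

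A T cell receptor binds peptide held by an MHC molecule but has almost no intracellular part of its own. The CD3 chains carry the tyrosine motifs (ITAMs) that the Src family kinases Lck and Fyn phosphorylate. Zap70 docks there and phosphorylates Lat and Lcp2 (SLP-76), a scaffold from which calcium, Ras and protein kinase C signals start. In double positive thymocytes the strength of this signal decides between death by neglect, positive selection and deletion.

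Values are log2 signals, so a difference of 1 is a 2-fold change. Each gene stands for its brightest probe set by mean signal, differences are Cre-positive minus Cre-negative, and calls needed a Benjamini-Hochberg adjusted p under 0.05 over all 11639 genes that passed a filter on low signal. The test was limma, a linear model that shares the spread across genes. All 42 genes passed that filter, as did 93 of the 100 probe sets. Ikzf1, the targeted gene, read 10.80 and 10.62 in Cre-positive samples 1 and 2, against 12.40 and 12.08 in Cre-negative samples 1 and 2, and fell by 1.53 ± 0.16 (SE; limma adjusted p = 0.024). That call held in 9 of 9 settings that kept all arrays and in 0 of 4 that left out 1 array, with differences of −1.69 to −1.37 and limma adjusted p-values of 0.0717 to 0.164 in those 4. A second, dimmer Ikzf1 probe set differed by −0.22. Double positive thymocyte genes gave high signal on every array: Rag1 read 13.25 and 13.41 in Cre-positive and 13.46 and 13.42 in Cre-negative samples, and Cd8a read 12.72 and 12.71 against 12.99 and 13.04. Cre-negative sample 2 had the Xist signal of a female, 12.75 against 4.73 to 5.37 on the other arrays. Without it the median member difference given below was −0.17, and without Cre-positive sample 2 it was −0.05.

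None of the 42 genes was called, with 0 higher and 0 lower, against 1.37% of all genes tested. At an unadjusted p under 0.05 stood 9 members (21.4%), near the 20.6% of all genes. By direction, 7 members were lower, 16.7% against 6.29% of all genes, and 2 were higher, 4.76% against 14.3%. The median difference of the members was −0.11, while that of all kept genes was 0.06, and 30 of the 42 (71.4%) had a difference below 0, against 39% of all genes. The median member signal per array was 10.38 and 10.18 in Cre-positive and 10.49 and 10.34 in Cre-negative samples. These array medians overlapped between groups, with a pooled standard deviation of 0.12 within groups. The mean member signal per array was 10.42 and 10.31 against 10.51 and 10.45 in Cre-negative samples, without overlap. Both Cre-positive arrays lay below both Cre-negative arrays for 19 members (45.2%; 18.7% of all genes) and above them for 4 (9.52%; 34.2% of all genes). These are descriptions, since the members were chosen with results of these arrays known, and they were not tested as a list. The differences were small: 4 of the 42 reached 0.5 in either direction (9.52%; 12.6% of all genes) and 0 reached 1. The moderated 95% interval of a member's difference, taken on its brightest probe set, had a median half-width of 0.34. It lay between −1 and 1 for 38 of 42 members, so for these probe sets a 2-fold change in either direction falls outside the interval. This does not cover dimmer probe sets: Themis and Ptprc are among the 38, yet a dimmer probe set of each differed by −1.12, as given below.

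**Figure D1:**
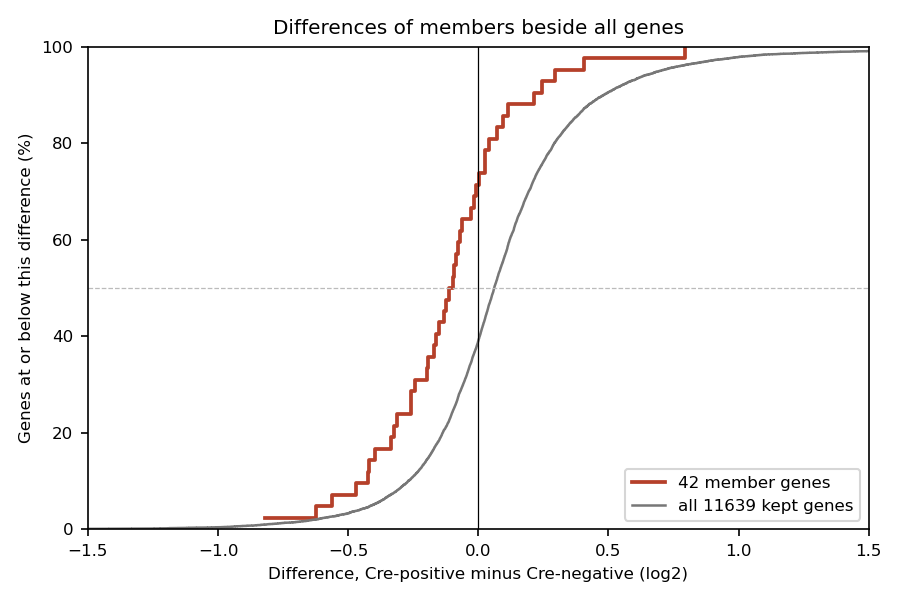
Cumulative percentage of genes (vertical axis) at or below a difference on the log2 scale, Cre-positive minus Cre-negative (horizontal axis), for the 42 member genes and for all 11639 kept genes. The member curve lies to the left, with a median of −0.11 against 0.06, and ends at 0.79; the axis is cut at 1.5 either way, past which only genes outside the list lie.

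Marker lists of thymocytes and of other cells are given as the mean log2 signal per array over all genes with a probe set. All 11 double positive markers with a probe set were kept, 0 were called, 9 had both Cre-positive arrays below both Cre-negative arrays (18.7% of all genes), and their median difference was −0.18, against 0.06 for all genes. Proliferation genes averaged 9.24 and 10.10 in Cre-positive samples 1 and 2 and 8.59 and 9.54 in Cre-negative samples 1 and 2, over 18 genes, with 0 called and groups that overlapped. Sample 2 read higher than sample 1 in both groups. The median difference of these genes was 0.70, against 0.06 for all genes. Both Cre-positive arrays lay above both Cre-negative arrays for 5 of the 18 (34.2% of all genes) and below them for 0 (18.7% of all genes). Macrophage and granulocyte markers (11 with a probe set, 8 kept, 1 called, Lyz2) averaged 5.34 and 5.94 in Cre-positive and 4.77 and 4.78 in Cre-negative samples. Dendritic cell markers (10 with a probe set, 9 kept, 2 called, H2-Ab1 and Irf8) averaged 6.15 and 6.20 against 5.56 and 5.30. Among the genes not called, C1qa differed by 1.11, H2-Aa by 2.25, Itgax by 0.27 and Adgre1 by −0.03, while Itgam and Xcr1 lay below the filter. The dendritic cell markers Siglech, Zbtb46 and Flt3, also not called, differed by 0.01, −0.14 and −0.16. S100a8 read 4.52 and 8.38 in Cre-positive and 4.50 and 4.02 in Cre-negative samples, so it was high in Cre-positive sample 2 alone, as was S100a9. NK and cytotoxic markers (9 with a probe set, 5 kept, Gzma called) averaged 5.65 and 5.58 in Cre-positive against 5.15 and 5.20 in Cre-negative samples, B cell markers (6, 4 kept, 0 called) 5.57 and 5.62 against 5.40 and 5.39, and stromal and epithelial markers (10, 6 kept, Pdgfrb called) 5.55 and 5.29 against 4.80 and 4.85. Col1a2 carried most of that last gap, at 11.55 and 8.01 in Cre-positive and 5.18 and 5.33 in Cre-negative samples (difference 4.52, limma adjusted p = 0.107). Mature single positive markers (9, 8 kept, Il7r called) averaged 6.73 and 6.82 against 6.92 and 6.67, and erythroid markers (4, 2 kept, 0 called) 4.83 and 5.08 against 4.91 and 4.89, both with groups that overlapped. Of the mature markers, Il7r differed by 1.12 and Klf2 by 0.71, but Cd69 by −0.75, Cd44 by −0.61 and Gimap5 by −0.52. Of the NK and cytotoxic markers, Gzma differed by 1.43, Tyrobp by 0.82, Ccl5 by 0.62 and Fcer1g by 0.06, but Prf1 by −0.32. The called marker genes differed by 1.05 (Pdgfrb) to 1.85 (Lyz2), and with 1 array left out Lyz2 kept its call in 2 of 4 fits, Gzma in 1, and Il7r, H2-Ab1, Irf8 and Pdgfrb in 0. The part of other cells or of cycling in the member differences was not tested, and in bulk RNA fewer cells of a type and less RNA per cell cannot be told apart.

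The 4 CD3 chain genes had differences of both signs, and 0 were called. Cd3e, the epsilon chain that pairs with gamma and with delta, read 9.80 and 9.83 in Cre-positive and 9.22 and 9.60 in Cre-negative samples. Both Cre-positive arrays lay above both Cre-negative ones, with a difference of 0.41 ± 0.16 (SE; unadjusted p = 0.0458, limma adjusted p = 0.233). It was 0.22 without Cre-negative sample 1 and 0.39 to 0.60 without any of the other arrays. Cd247, the zeta chain with most of the receptor's ITAMs, read 11.83 and 11.64 in Cre-positive and 12.07 and 12.07 in Cre-negative samples, a difference of −0.33 ± 0.12 (SE; limma adjusted p = 0.21). Cd3g, the gamma chain, read 11.86 and 11.92 against 12.22 and 11.96 in Cre-negative samples and differed by −0.19, with a 95% interval from −0.53 to 0.14. Cd3d, the delta chain, read 12.68 and 12.44 in Cre-positive and 12.63 and 12.49 in Cre-negative samples. Its groups overlapped and its difference of 0.00 had an interval from −0.34 to 0.35. The 3 CD3 genes neighbour each other on mouse chromosome 9, with 0 annotated genes between Cd3g and Cd3d and 0 between Cd3d and Cd3e. Their differences ranged from −0.19 to 0.41, and their 95% intervals overlapped, that of Cd3e running from 0.01 to 0.80. Whether the 3 genes differed from each other was not tested.

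Sequence before the starts of these genes is shown for a pair of CD3 genes and for the members with the smallest p in each direction, Dgka and Vav3, described below. Ikaros binds DNA at sites built around a GGGAA core, and the extended form TGGGAA was searched on both strands in the 300 bases from 250 before to 50 after each start in RefSeq (GRCm38.p6). Matches are in capitals, also where the reverse complement matched. For Dgka the start with the most matches among 4 is shown (chr10:128744027-128744326, minus strand), for Vav3 the lowest by coordinate of 3 (chr3:109340433-109340732, plus strand), for Cd3e chr9:45009562-45009861, minus strand and for Cd3g chr9:44980382-44980681, minus strand.
Dgka: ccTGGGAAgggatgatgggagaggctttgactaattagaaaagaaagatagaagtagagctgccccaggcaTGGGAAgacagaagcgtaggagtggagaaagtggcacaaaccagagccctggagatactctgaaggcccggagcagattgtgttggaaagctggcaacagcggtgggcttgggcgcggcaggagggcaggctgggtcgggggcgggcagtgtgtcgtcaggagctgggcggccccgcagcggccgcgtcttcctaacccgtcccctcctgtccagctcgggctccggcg
Vav3: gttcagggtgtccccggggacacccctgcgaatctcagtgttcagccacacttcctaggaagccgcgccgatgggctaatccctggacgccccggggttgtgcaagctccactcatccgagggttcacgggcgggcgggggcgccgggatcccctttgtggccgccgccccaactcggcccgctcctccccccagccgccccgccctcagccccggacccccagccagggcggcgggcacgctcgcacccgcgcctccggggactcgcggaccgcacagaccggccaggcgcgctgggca
Cd3e: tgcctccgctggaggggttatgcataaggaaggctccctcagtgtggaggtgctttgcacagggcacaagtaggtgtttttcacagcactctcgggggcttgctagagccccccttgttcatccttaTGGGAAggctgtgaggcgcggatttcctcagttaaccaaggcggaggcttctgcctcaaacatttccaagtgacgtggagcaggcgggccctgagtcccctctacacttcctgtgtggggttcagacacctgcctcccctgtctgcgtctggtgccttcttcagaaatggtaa
Cd3g: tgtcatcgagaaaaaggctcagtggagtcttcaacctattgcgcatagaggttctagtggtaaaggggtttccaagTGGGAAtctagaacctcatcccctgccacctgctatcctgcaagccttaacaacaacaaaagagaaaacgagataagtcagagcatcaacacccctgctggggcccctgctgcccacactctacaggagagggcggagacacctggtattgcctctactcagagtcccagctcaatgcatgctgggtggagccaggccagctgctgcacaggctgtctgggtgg
The Dgka window held 2 matches, the Cd3e and Cd3g windows 1 each and the Vav3 window 0. Of 54 start windows found for 35 members, 14 held the motif (25.9%), against 25.6% of the 32851 windows of all genes. A match is a description of these letters and not a site.

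Among the tyrosine kinases Txk, Fyn, Zap70 and Csk, Txk had the difference farthest from 0, and 0 were called. Txk, a Tec family kinase of T cells, read 8.47 and 8.47 in Cre-positive and 8.91 and 8.97 in Cre-negative samples. The groups did not overlap, and the difference was −0.47 ± 0.11 (SE; unadjusted p = 0.00652, limma adjusted p = 0.108). Zap70, which relays the signal from the CD3 chains, read 10.15 and 9.91 against 10.20 and 10.05 in Cre-negative samples. Its groups overlapped, with a difference of −0.10 and an interval from −0.44 to 0.25, and its other probe sets differed by −0.24 and −0.08. Fyn differed by 0.11 and overlapped, and by 0.29 in its second probe set. Csk, which holds Src family kinases inactive, read 10.12 and 9.80 in Cre-positive and 9.85 and 9.65 in Cre-negative samples and differed by 0.21.

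None of the 4 phosphatases was called. Ptpn6 (SHP-1), a brake on proximal signalling, read 11.12 and 10.71 in Cre-positive and 10.68 and 10.66 in Cre-negative samples, so that Cre-positive sample 1 carried most of its difference of 0.24. Ptpn22, which acts with Csk, differed by −0.11. Ubash3a, which dampens Zap70 signalling, differed by 0.07. Ptprc (CD45), which keeps Src family kinases ready to act, differed by −0.10 in its brightest probe set.

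**Figure D2:**
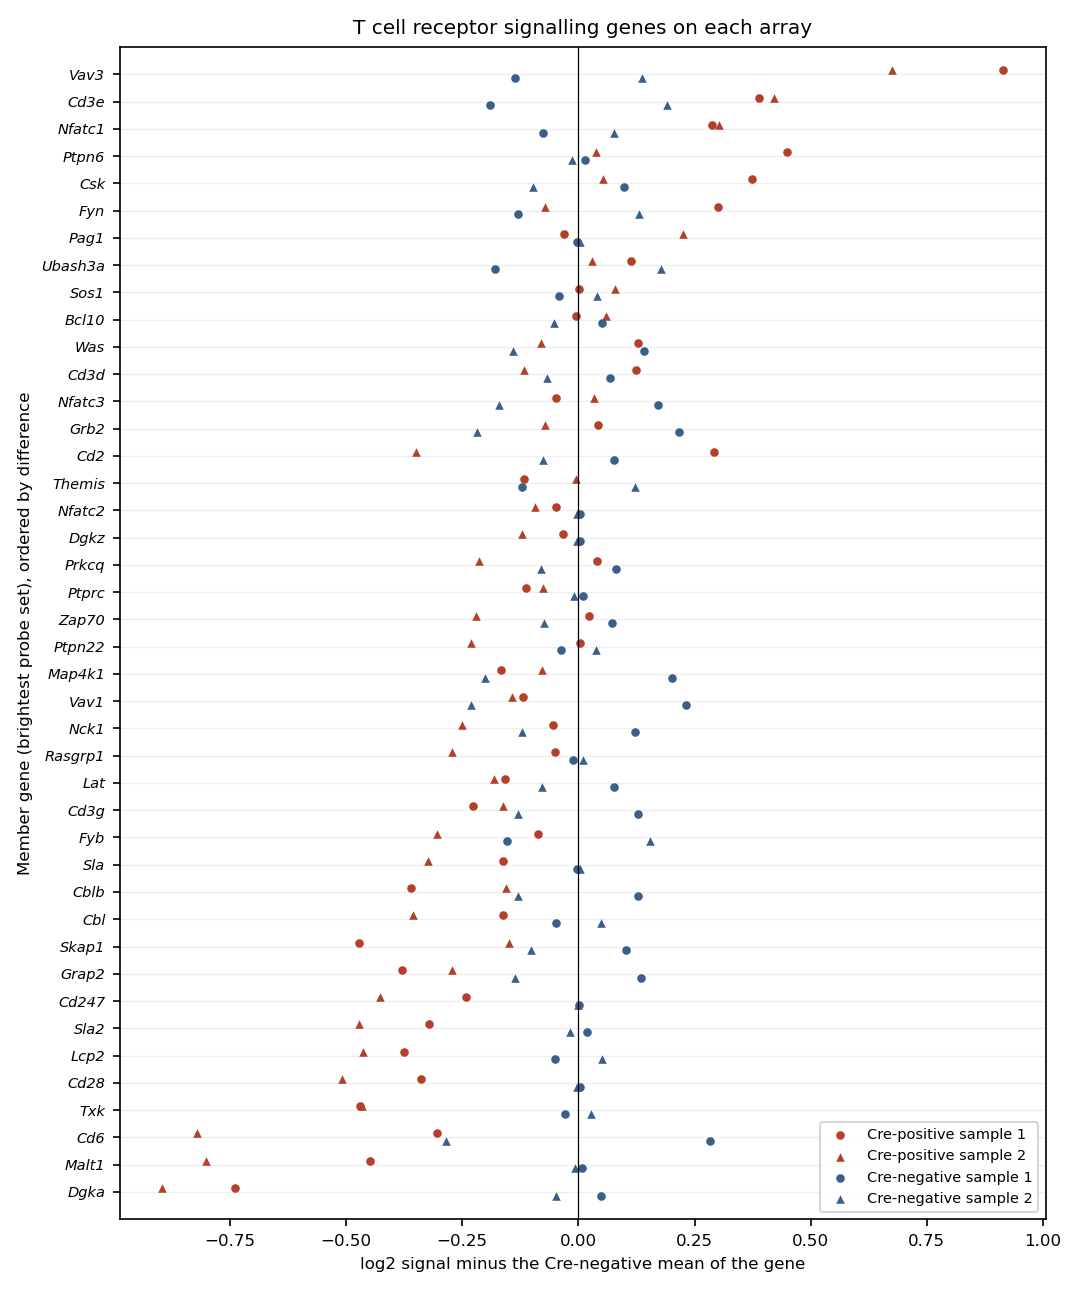
Log2 signal on each array minus the Cre-negative mean of the gene (horizontal axis) for the 42 member genes, ordered by difference (vertical axis), with circles for sample 1 and triangles for sample 2 of each group. Dgka at the bottom and Vav3 at the top are farthest from 0, 19 genes have both Cre-positive arrays below both Cre-negative arrays, and 4 have them above.

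Of the 12 adaptors, 10 had a difference below 0, 6 had Cre-positive arrays entirely below Cre-negative ones, 0 had them above, and 0 were called. Over all genes 39% had a difference below 0, 18.7% had Cre-positive arrays entirely below and 34.2% entirely above. Lcp2, the scaffold that Zap70 phosphorylates next to Lat, read 10.68 and 10.59 in Cre-positive and 11.00 and 11.10 in Cre-negative samples. Its difference was −0.42 ± 0.12 (SE; unadjusted p = 0.013, limma adjusted p = 0.138), though its dimmer probe set differed by −0.06. Lat itself, the membrane scaffold, read 12.15 and 12.12 against 12.38 and 12.23 in Cre-negative samples and differed by −0.17, with an interval from −0.47 to 0.13. Grap2 (Gads), which joins Lat to Lcp2, differed by −0.33 with groups that did not overlap. Sla2 and Sla (SLAP-2 and SLAP) are adaptors that lower receptor levels and signalling. Sla2 read 9.36 and 9.21 in Cre-positive and 9.70 and 9.66 in Cre-negative samples, a difference of −0.40 ± 0.12 (SE; unadjusted p = 0.0177, limma adjusted p = 0.156), with its other probe set at −0.25. Sla differed by −0.24. Skap1 and Fyb, which link the receptor to integrin adhesion, differed by −0.31 and −0.20. Nck1 and Grb2, which bring in actin regulators and Sos1, differed by −0.15 and −0.01, Was, the X-linked actin regulator, by 0.02, and Pag1, the membrane anchor of Csk, by 0.10. Themis, needed for positive selection, differed by −0.06 in its brightest probe set.

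**Figure D3:**
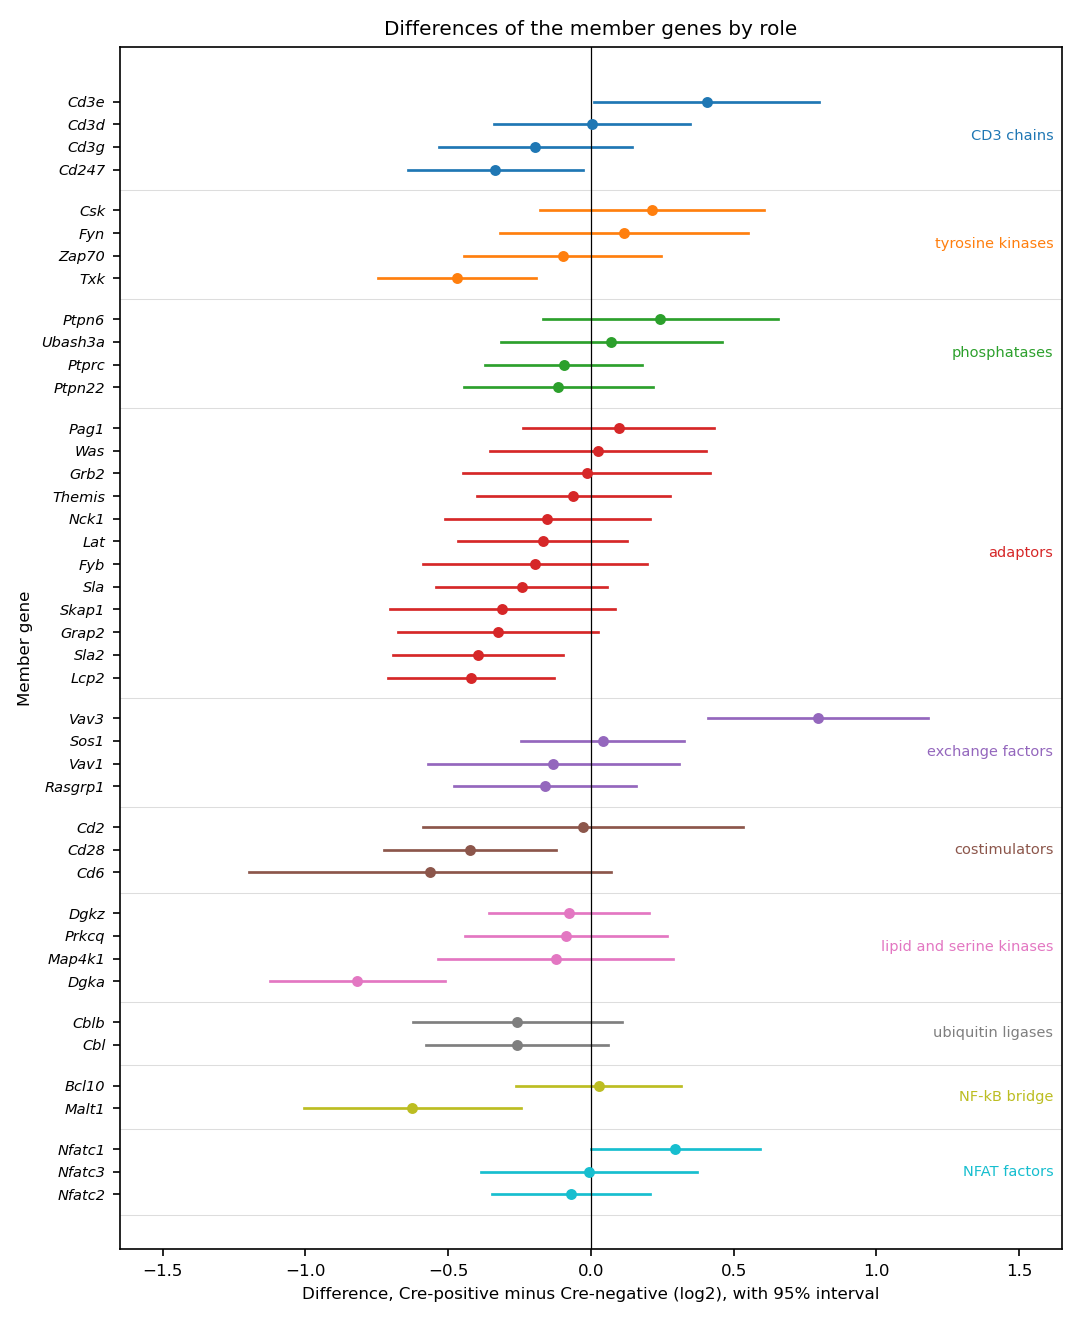
Difference on the log2 scale, Cre-positive minus Cre-negative (horizontal axis), with its moderated 95% interval, for each member gene grouped by role (vertical axis); points are estimates from 2 arrays per group. The intervals of 33 of the 42 genes include 0, and those that do not are Cd3e, Cd247, Txk, Lcp2, Sla2, Vav3, Cd28, Dgka and Malt1.

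Vav3 had the largest positive difference of the members. It encodes an exchange factor of the Vav family, and it read 8.11 and 7.87 in Cre-positive and 7.06 and 7.33 in Cre-negative samples. The groups did not overlap, and the difference of 0.79 ± 0.15 (SE) is 1.73-fold (unadjusted p = 0.00262, limma adjusted p = 0.0757). A second probe set read 6.60 and 6.14 against 5.48 and 5.62 in Cre-negative samples and differed by 0.82, and another lay below the filter. Vav1, its relative that dominates in T cells, differed by −0.13. The Ras exchange factors Rasgrp1, which is driven by diacylglycerol, and Sos1, which is brought in by Grb2, differed by −0.16 and 0.04. Without any single array, the Vav3 difference lay between 0.66 and 0.93, and its limma adjusted p between 0.148 and 0.281. Of 9 alternative settings that kept all arrays, Vav3 passed in 1, with sample number as a replicate block (limma adjusted p = 0.0371). In the others the limma adjusted p reached 0.155, and over the 9 settings the difference lay between 0.54 and 0.82.

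Dgka had the largest negative difference. It encodes diacylglycerol kinase alpha, which removes the lipid that activates Rasgrp1 and protein kinase C and so restrains the Ras branch. Its single probe set read 11.04 and 10.89 in Cre-positive and 11.83 and 11.73 in Cre-negative samples. The groups lay far apart, with a difference of −0.82 ± 0.12 (SE), 1.76-fold higher in the Cre-negative mice, and it missed the threshold (unadjusted p = 0.000741, limma adjusted p = 0.0512). It passed in 6 of 9 alternative settings that kept all 4 arrays, with limma adjusted p-values from 0.0186 to 0.0571, the lowest with sample number as a replicate block. Without any single array the difference lay between −0.90 and −0.74 and the limma adjusted p between 0.144 and 0.229. Dgkz, the zeta form of the same enzyme, differed by −0.08, with an interval from −0.36 to 0.20. Prkcq, the protein kinase C that diacylglycerol recruits, and Map4k1, a kinase that dampens Lcp2, differed by −0.09 and −0.12.

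All 3 costimulators had a difference below 0, and 0 were called. Cd28, the receptor for CD80 and CD86, read 11.45 and 11.27 in Cre-positive and 11.79 and 11.78 in Cre-negative samples, a difference of −0.42 ± 0.12 (SE; unadjusted p = 0.0144, limma adjusted p = 0.146), while its other probe set differed by −0.16. Cd6, a scavenger receptor family protein of T cells, read 10.29 and 9.77 against 10.88 and 10.31 in Cre-negative samples and differed by −0.56 ± 0.25. Its spread within groups was about as wide as its difference, and its limma adjusted p was 0.29. Cd2, an adhesion receptor, differed by −0.03 with overlapping groups.

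Further down, Malt1 had the lowest difference of the genes that lead to NF-kB and NFAT. Malt1, a protease that acts together with Bcl10, read 8.18 and 7.83 in Cre-positive and 8.64 and 8.62 in Cre-negative samples, a difference of −0.63 ± 0.15 (SE; unadjusted p = 0.00732, limma adjusted p = 0.114). Bcl10 differed by 0.03. Nfatc1, a calcineurin-dependent transcription factor, read 9.31 and 9.32 in Cre-positive and 8.94 and 9.10 in Cre-negative samples and differed by 0.29 ± 0.12 (SE; limma adjusted p = 0.244), but its other 4 probe sets differed by −0.03 to 0.13. Nfatc2 and Nfatc3 differed by −0.07 and −0.01. The ubiquitin ligases Cbl and Cblb, which tag signalling proteins for removal, both differed by −0.26 in their brightest probe sets, and the other 2 Cbl probe sets by −0.38 and −0.36.

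Probe sets of the same gene gave different answers for several members. Fitted across all 20967 kept probe sets with single symbols, 1 of the 93 member probe sets was called, against 0.868% of all, and 19 had an unadjusted p under 0.05, against 21.2% of all. The called one belongs to Themis. It read 10.59 and 10.49 in Cre-positive and 11.69 and 11.62 in Cre-negative samples, and fell by 1.12 ± 0.12 (SE; limma adjusted p = 0.0351), while the other 3 Themis probe sets differed by −0.19 to −0.05. Its call was lost without any single array, with differences of −1.17 to −1.07 and limma adjusted p-values of 0.0864 to 0.184. In Ptprc a dimmer probe set showed the same pattern, at 10.75 and 10.11 in Cre-positive and 11.49 and 11.60 in Cre-negative samples, a difference of −1.12 ± 0.23 (SE; limma adjusted p = 0.0801) beside −0.10 in the brightest. A dimmer Rasgrp1 probe set read 8.34 and 7.92 against 9.16 and 8.76 in Cre-negative samples and differed by −0.83 (limma adjusted p = 0.109), and one of Sla differed by −0.70 (limma adjusted p = 0.127). These 4 were chosen after their values were seen.

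In other members the probe sets had opposite signs. The brightest Cblb probe set read 8.23 and 8.44 in Cre-positive and 8.72 and 8.47 in Cre-negative samples. A second read 8.28 and 8.29 against 7.54 and 7.63 in Cre-negative samples, a difference of 0.70 ± 0.12 (SE; limma adjusted p = 0.0631), and the third differed by 0.43. The direction for Cblb therefore depends on the probe set. A second Cd247 probe set read 7.96 and 7.66 in Cre-positive and 7.26 and 6.75 in Cre-negative samples and differed by 0.81 ± 0.21 (SE; limma adjusted p = 0.118), opposite to the brightest. Second probe sets of Malt1 and Ubash3a differed by 0.15 and −0.44, against −0.63 and 0.07 in their brightest, and the dimmest Bcl10 probe set differed by −0.53. Rasgrp1, described above, also had a probe set of opposite sign, at 0.08. Of 29 members with several kept probe sets, 6 had differences of opposite sign at least 0.5 apart (20.7%), close to the 18.1% of the 5348 such genes in the whole table. The labels do not say which part of a transcript each probe set reads.

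**Figure D4:**
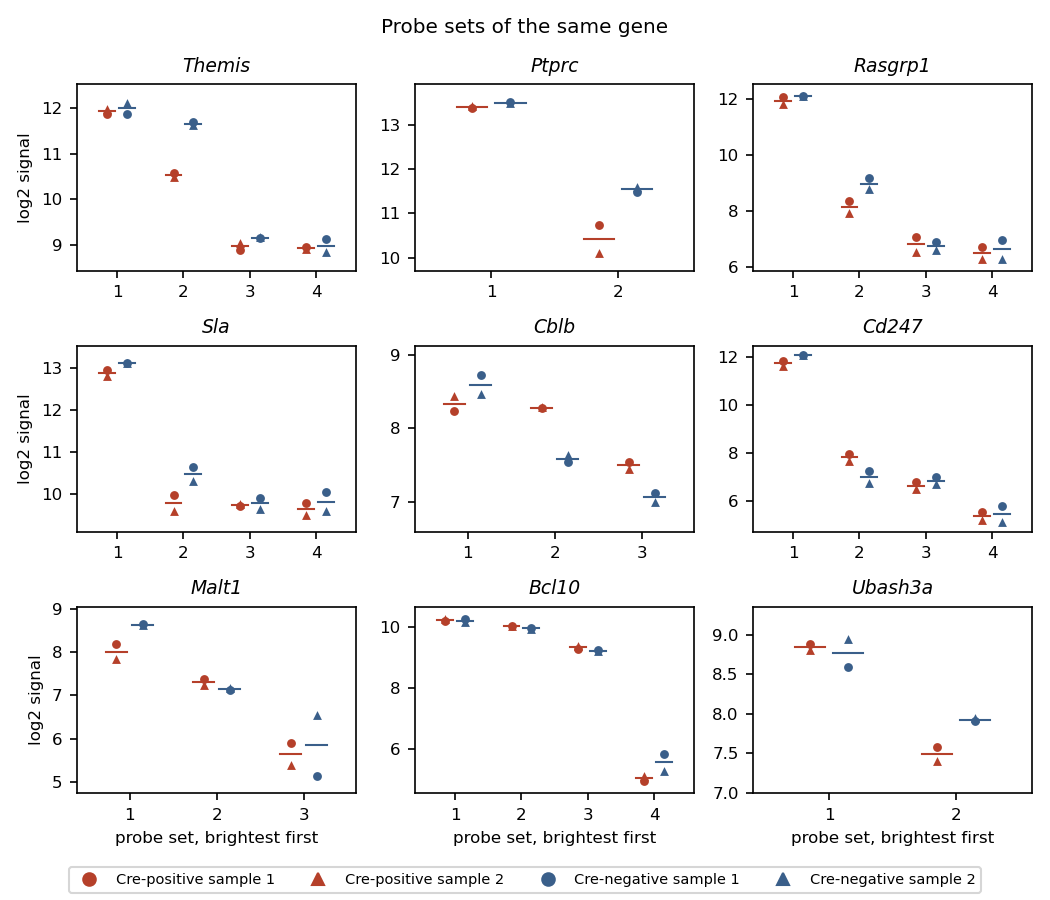
Log2 signal (vertical axis) of every kept probe set of 9 members, ordered from the brightest (horizontal axis), with Cre-positive arrays left of Cre-negative arrays and bars at the group means. The second Themis and Ptprc probe sets are more than 1 lower in Cre-positive mice while the first ones nearly coincide, and Cblb and Cd247 hold probe sets of opposite direction.

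Of 66 other genes of the pathway, 53 were kept, 2 fell, 0 rose and 51 were not called, against 0.266% of all genes lower and 1.11% higher; their median difference was −0.09. The 2 called genes, Tespa1 and Itpkb, act between the Lat scaffold and calcium release. Tespa1 read 9.54 and 9.46 in Cre-positive and 10.93 and 11.02 in Cre-negative samples, and fell by 1.48 (limma adjusted p = 0.0153). Itpkb, an inositol trisphosphate kinase, read 10.19 and 9.95 against 11.19 and 11.21 in Cre-negative samples and fell by 1.13 (limma adjusted p = 0.0299), a call lost with the mean of its probe sets (difference −0.59, limma adjusted p = 0.0912) and in all 4 fits with 1 array left out (limma adjusted p = 0.0885 to 0.209). The Tespa1 call held without Cre-positive sample 2 (limma adjusted p = 0.0474) and was lost without any of the other arrays (0.0669 to 0.125). Neither call is independent of what was known when the list was written. Next by p stood Gab3 at −0.58, the phosphatase gene Ptpn2 at 0.47, the inhibitory receptor gene Pdcd1 at 1.04 and Sh2d1a (SAP) at −0.46, with limma adjusted p-values of 0.0913 to 0.156. Pdcd1 read 8.17 and 7.24 in Cre-positive and 6.51 and 6.82 in Cre-negative samples, and its difference was 0.58 without Cre-positive sample 1.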

How the data were processed

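Double positive thymocyte RNA of 2 Cre-positive and 2 Cre-negative mice was labelled with biotin after a 2-cycle amplification, per the labels' protocols. Those list several RNA amounts with codes not tied to samples, so a batch could not be checked. The deposited values are log2 signals made by the authors with RMA, per the submitters' processing notes; base 2 was taken from the range, 2.18 to 14.4, and the usual RMA scale. Array medians were 5.23 and 5.25 in Cre-positive and 5.19 and 5.22 in Cre-negative samples; the number of arrays limits precision.

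Gene names came from the platform annotation: 34945 probe sets had 1 symbol, 932 several and 9160 none. Genes entered through their brightest probe set if its mean reached the 40th percentile of named probe sets (4.76). limma 3.58.1 in R 4.3.3 (lmFit, eBayes, 2 residual degrees of freedom, prior 3.59) compared the groups, two-sided. With 2 arrays a side, the smallest exact permutation p is 0.333. The 95% intervals use the moderated spread. The fit was checked on simulated data. There limma missed many planted differences of 1, calling 59 out of 100. For planted differences of 2 the calls reached 94 out of 100. False calls made up 10 of the 163 calls. A member without a call can therefore still have changed. Alternatives altered the low-signal filter, which probe sets entered, the prior, centring and array weights, added a replicate block, or left out each array.

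Members and lists were chosen with earlier results of these data known. Every member was named, and array values were given for fixed proximal genes, an unadjusted p under 0.05 and the 5 largest differences each way. Of members with probe sets of opposite sign at least 0.5 apart, array values for both signs were given for Cblb and Cd247 alone. Figures used matplotlib 3.10.9.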

Additional observations from a re-analysis of the deposited data

How the results depend on the processing

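The median member difference kept its sign in all settings, and lay between −0.17 and −0.05 with 1 array left out. The median member signal per array still overlapped between groups, with a pooled standard deviation of 0.12 within groups. The number of members called was 1, Dgka, without the filter on low values, with the mean of all probe sets, with a trended or robust prior and with centred arrays, 2 with the replicate block (Dgka and Vav3), and 0 to 0 with 1 array left out. Member probe sets called numbered 2 with a trended prior, 9 with the replicate block, and 0 to 0 with 1 array left out; averaging probe sets gives no such count. Other pathway genes called numbered 1 with the mean of all probe sets, 4 with the replicate block, and 0 to 1 with 1 array left out. Calls in the whole table numbered 90 with the filter at the 60th percentile, 104 without probe sets marked as binding several transcripts, 245 with the robust prior and 821 with the replicate block, and 3 (without Cre-negative sample 2) to 99 (without Cre-positive sample 2) with 1 array left out. The cause of these shifts was not tested. The labels do not say that sample numbers pair the mice; deviations of same-numbered samples correlated at 0.15 over kept probe sets.

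The members whose sign changed were not called as genes in the settings run. With the mean of all probe sets Cd247, at −0.33 in its brightest, differed by 0.049, Bcl10 by −0.075, Grb2 by 0.16, Ubash3a by −0.18, Cblb, at −0.26 in its brightest, by 0.29 and Nfatc2 by 0.030. Without probe sets marked as binding several transcripts Bcl10 differed by −0.53, Vav1 by 0.070 and Nck1 by 0.0026. With centred arrays Cd3d differed by −0.027, Bcl10 by −0.0031 and Was by −0.0061. With 1 array left out the range was −0.12 to 0.12 for Cd3d, −0.031 to 0.22 for Pag1, −0.18 to 0.060 for Themis, −0.18 to 0.16 for Nfatc3, −0.21 to 0.040 for Prkcq, −0.35 to 0.29 for Cd2, −0.23 to 0.0040 for Ptpn22, −0.025 to 0.079 for Bcl10, −0.071 to 0.30 for Fyn, −0.22 to 0.022 for Zap70, −0.36 to 0.10 for Vav1, −0.23 to 0.20 for Grb2, −0.00030 to 0.082 for Sos1, −0.32 to 0.078 for Map4k1, −0.12 to 0.16 for Was and −0.11 to 0.25 for Ubash3a.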
